A study of Homo sapiens with 6 samples.

Results

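The Hippo kinase cascade was examined in the human gastric cancer line HGC-27 through 10 genes that act upstream of the coactivators YAP and TAZ. They were the kinases STK3, STK4, LATS1 and LATS2, the adaptors SAV1, MOB1A and MOB1B, and the membrane scaffolds NF2, WWC1 and AMOTL2. The genes were taken as a list by symbol and not by their values, and all 10 were found among the 62443 genes of the deposited table. RNA-sequencing profiles of 3 control libraries (Con) were set against 3 libraries of cells given GLUP, a cross-linked peptide made from the TEAD4-binding motif of VGLL4 and designed to draw the transcription factor TEAD4 into repressive condensates. The Con cells carry no treatment by their labels. By the methods of the study, a stocking buffer of HEPES and NaCl was the negative control. GLUP was given at 10 μg/ml, and the exposure is stated both as 12 h and as 48 h. All 6 libraries came from total RNA of the same unmodified line. The methods state that RNA came from biological replicates, without an exact number. The labels do not say whether the libraries of a group came from separate cultures, so p-values measure only the spread between these libraries.

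In the canonical pathway, STK3 and STK4, bound to the adaptor SAV1, phosphorylate LATS1, LATS2 and the MOB1 proteins. Activated LATS kinases, with MOB1 as their coactivator, phosphorylate YAP and TAZ, which then stay in the cytoplasm and do not reach the TEAD factors on chromatin. NF2 (merlin), WWC1 (KIBRA) and the angiomotins recruit these kinases to the membrane or hold YAP there. The cascade acts as a tumour suppressor in many epithelia, the stomach among them, and much of its regulation is by phosphorylation, which RNA levels do not record.

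The values were FPKM, which scales fragments by gene length and by the library total, and the number of reads behind them is unknown. FPKM summed to 909735 to 965147 per library, with 20061 to 21498 genes above 0. Con replicate 2 stood apart, with a mean correlation across genes of 0.898 with the other libraries, compared with 0.954 to 0.964 for the rest. Libraries also differed by base composition: when the deviation of each library from the mean of a gene was set against transcript GC content over 7388 genes, Spearman's rho was −0.338 in Con replicate 1, −0.595 in Con replicate 2, 0.452 in Con replicate 3 and 0.338 to 0.539 in GLUP. Defining markers of a glandular epithelium were low or absent. VIM, a mesenchymal marker, was at 222 to 387 FPKM, while EPCAM and CDH1, which define epithelia, reached at most 0.124 and 0.0799 FPKM, and the gastric mucosa genes TFF1, TFF2, MUC6 and GKN1 were listed at 0 in all 6 libraries. Summed over 6 epithelial markers the level was 3.07 to 3.83 FPKM in Con and 5.29 to 6.15 FPKM in GLUP, of which KRT8, KRT18 and KRT19 made up nearly all. Summed over 4 mesenchymal markers it was 344 to 410 FPKM and 229 to 340 FPKM, and over 3 fibroblast markers 40.4 to 60.3 FPKM and 31.1 to 48.5 FPKM. VIM made up nearly all of the mesenchymal sum, while ZEB1 reached at most 19.2 FPKM, FN1 3.25 FPKM and CDH2 only 0.0508 FPKM. In the fibroblast sum the mean of DCN was lower in GLUP (29.7 and 19.5 FPKM). Those of COL1A1 (3.48 and 4.73 FPKM) and COL3A1 (16.6 and 17.7 FPKM) were higher. Leukocyte and endothelial markers reached summed levels of at most 0.0394 and 0.0045 FPKM. The part of these shifts in the results below was not tested, and in bulk RNA fewer cells of a type and less RNA per cell cannot be told apart.

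The first question was how strongly each layer of the cascade was expressed. MOB1A dominated: averaged over the 6 libraries it stood at 15.3 FPKM, 9.0 times the next gene, and its lowest library was above the highest library of every other member. NF2 (1.70 FPKM), STK3 (1.67 FPKM), STK4 (1.53 FPKM) and SAV1 (1.01 FPKM) formed a middle layer. WWC1 (0.703 FPKM), AMOTL2 (0.429 FPKM), LATS2 (0.326 FPKM), MOB1B (0.322 FPKM) and LATS1 (0.159 FPKM) lay below 1 FPKM, so that, per length, the LATS pair was the scarcer of the 2 kinase pairs. Among the 7406 genes that averaged 1 FPKM or more, MOB1A was at percentile 76.2, NF2 at 21.7, STK3 at 21.1, STK4 at 17.8 and SAV1 at 0.432. Below MOB1A the ranges of all neighbours in this order overlapped. STK4 was nevertheless above SAV1, and WWC1 above AMOTL2, in 6 of 6 libraries, whereas STK3 exceeded STK4 in 2 of 6.

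**Figure D1:**
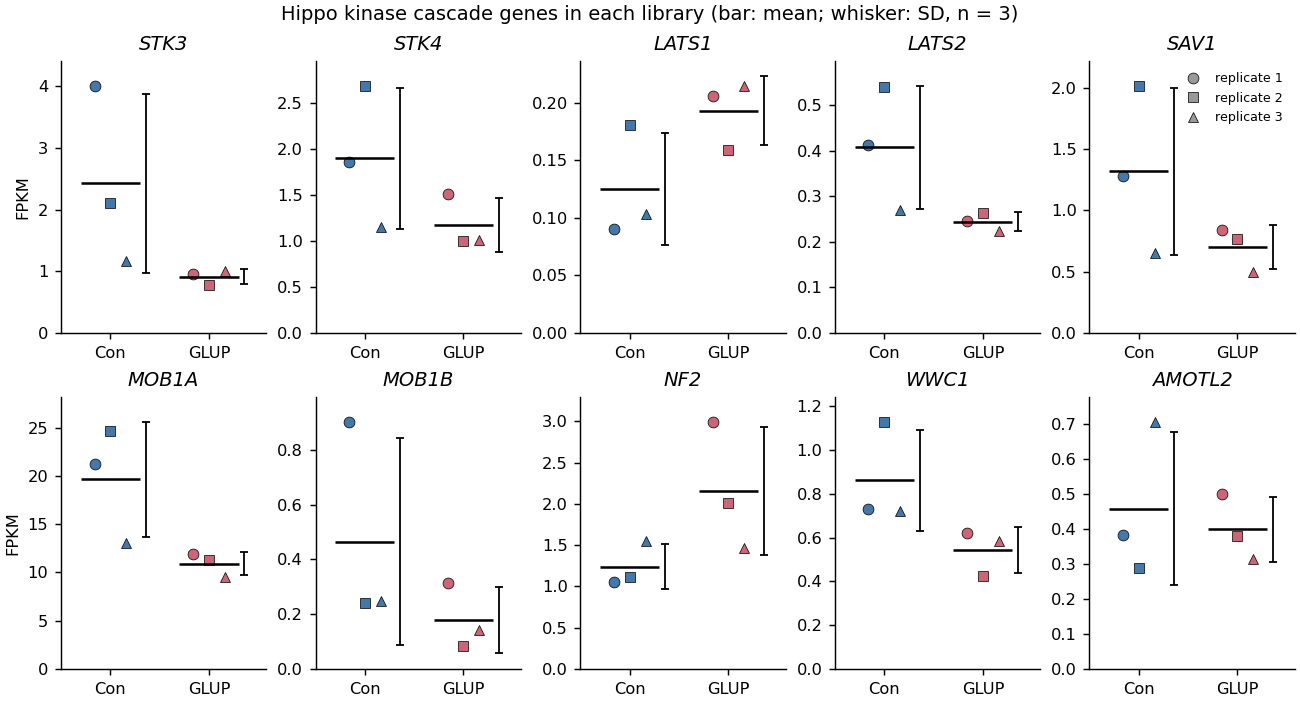
FPKM of each of the 10 genes in the 3 Con (blue) and 3 GLUP (red) libraries, with the marker shape giving the replicate number, the bar the group mean and the whisker the SD (n = 3), each panel on its own linear axis from 0. The GLUP points of STK3, LATS2, MOB1A and WWC1 all sit below the Con points, and Con replicate 3 is the Con point nearest to them.

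The comparison of GLUP with Con then asked whether RNA of the cascade differs after the peptide. Mean levels of 8 genes were lower in GLUP, among them both upstream kinases, SAV1, both MOB1 genes and LATS2, while NF2 and LATS1 had higher means. None of the 10 passed an adjusted p of 0.05 in limma on log2(FPKM + 1), with adjusted p-values from 0.204 to 0.869, and neither did any of the 7406 genes tested, a background of 0%, although 1606 of them had an unadjusted p under 0.05. Of the 5 members tested at 1 FPKM or more, 2 were lower at an unadjusted p under 0.05, STK3 and MOB1A, where 17.2% of all tested genes were, and 0 were higher, where 4.46% of all genes were. Scaling by the trimmed mean of log ratios turned these counts: 8.76% of the tested genes were then lower and 10.3% higher, STK3 and MOB1A had an unadjusted p of 0.0580 and 0.0999 in limma, and NF2 was the member called, as higher. The 3 GLUP values lay entirely below the 3 Con values for 4 of the 10 members, STK3, LATS2, MOB1A and WWC1, compared with 17.4% of the 15802 genes that averaged 0.1 FPKM or more. For 0 of 10 they lay entirely above, compared with 6.61% of these genes, and for 6 the groups overlapped. These counts also turned with the trimmed mean of log ratios. STK3 and MOB1A stayed entirely lower, LATS2 and WWC1 overlapped, and LATS1 lay entirely higher. Of the 7406 tested genes, which leave out LATS1, LATS2 and WWC1, 1070 were then entirely lower and 1049 entirely higher. In the fit without a filter these counts were 1986 and 2247 of 31444 genes. For the genes that averaged 0.1 FPKM or more they were not computed with this scaling.

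The whole table was displaced downward in the same comparison. Over all tested genes the median log2 fold change stood at −0.23, and 65.5% had a lower mean in GLUP. The median of the 5 tested members was −0.41. Over all 10 members it was −0.28, beside −0.10 for the genes of at least 0.1 FPKM. Scaling by the trimmed mean of log ratios moved the median of all tested genes to −0.01 and that of the 10 members to −0.17. Measured from that median as deposited, the log2 fold change was −0.53 for STK3 and MOB1A, −0.18 for SAV1, −0.16 for STK4 and 0.70 for NF2.

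Of the 2 upstream kinases, STK3 (MST2, ENSG00000104375, a protein-coding gene on chromosome 8, 99383456 to 99955055, minus strand, in GRCh37 as are the gene positions below) had 4.01, 2.10 and 1.16 FPKM in Con, given here and below in the order of the replicate numbers, and 0.949, 0.778 and 1.01 FPKM in GLUP. The groups did not overlap, but Con replicate 3 was close to GLUP and Con replicate 1 stood far above. STK3 averaged 2.43 ± 1.45 FPKM in Con against 0.912 ± 0.121 FPKM in GLUP (SD, n = 3 each), a log2 fold change of −0.76 (SE 0.31) with an unadjusted p of 0.0330 and an adjusted p of 0.204 in limma. Without Con replicate 3 the change was −1.05 and STK3 passed the adjusted threshold in limma, as did 1367 of the 7406 genes, and without Con replicate 1 it was −0.44. STK4 (MST1, ENSG00000101109, chromosome 20, 43595135 to 43708662, plus strand) was at 1.85, 2.68 and 1.15 FPKM in Con and 1.51, 1.00 and 1.01 FPKM in GLUP. GLUP replicate 1 exceeded Con replicate 3, so the groups overlapped. STK4 had a log2 fold change of −0.39 (SE 0.26, adjusted p 0.362 in limma), which was −0.20 without Con replicate 2.

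LATS1 and LATS2, the kinases that phosphorylate YAP and TAZ, had means that went in opposite directions. LATS2 (ENSG00000150457, chromosome 13, 21547175 to 21635725, minus strand) was at 0.412, 0.540 and 0.271 FPKM in Con and 0.246, 0.264 and 0.223 FPKM in GLUP. All GLUP values were lower, by a narrow margin against Con replicate 3, but the groups overlapped with the trimmed mean of log ratios. The log2 fold change was −0.17 (SE 0.12), or −0.11 without Con replicate 2, on a scale that understates changes at such levels. LATS1 (ENSG00000131023, chromosome 6, 149979289 to 150039241, minus strand) was at 0.0904, 0.181 and 0.104 FPKM in Con and 0.206, 0.159 and 0.215 FPKM in GLUP. Con replicate 2 lay above GLUP replicate 2, so the groups overlapped, and the log2 fold change was 0.09 (SE 0.07). Both genes had an adjusted p of 0.622 in limma.

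Because FPKM is per length, paralogues can be set side by side within a library, and the share of each in its pair does not depend on how the library was scaled. LATS2 made up 82.0%, 74.9% and 72.3% of the summed LATS1 and LATS2 FPKM in Con and 54.4%, 62.5% and 50.9% in GLUP. LATS2 was thus the more abundant paralogue in these values in 6 of 6 libraries, and its share was lower in every GLUP library than in any Con library, at 76.4% ± 5.01 (SD, n = 3) and 55.9% ± 5.92 (SD, n = 3). The difference was −20.5 percentage points, with p = 0.1 in a two-sided exact permutation test, the smallest that 3 against 3 libraries allow, and 0.3 when adjusted over the 3 pairs. It ran from −23.8 to −17.7 points with single libraries left out. The GC content of the transcript was 51.8% for LATS2 and 39.0% for LATS1, and with the trend in GC content and length taken out of each library the difference was −26.1 points, and the LATS2 share was 50.1% in GLUP replicate 1 and 49.1% in GLUP replicate 3, where LATS1 was then the higher.

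STK3 held 68.4%, 43.9% and 50.3% of the summed STK3 and STK4 FPKM in Con and 38.5%, 43.8% and 50% in GLUP. These shares overlapped, and Con replicate 1 was high by itself. The difference was −10.1 points (54.2% ± 12.7 and 44.1% ± 5.73, SD, n = 3), with p = 0.2 in the exact permutation test and 0.3 adjusted over the 3 pairs. It was −3.05 points without Con replicate 1 and −15.3 points without Con replicate 2. MOB1A held 95.9% to 99.3% of the MOB1 pair in the 6 libraries. Its share was 97.7% ± 1.60 in Con and 98.4% ± 0.928 in GLUP (SD, n = 3), a difference of 0.718 points with an exact permutation p of 0.6, also 0.6 when adjusted, which was −0.168 points without Con replicate 1.

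**Figure D2:**
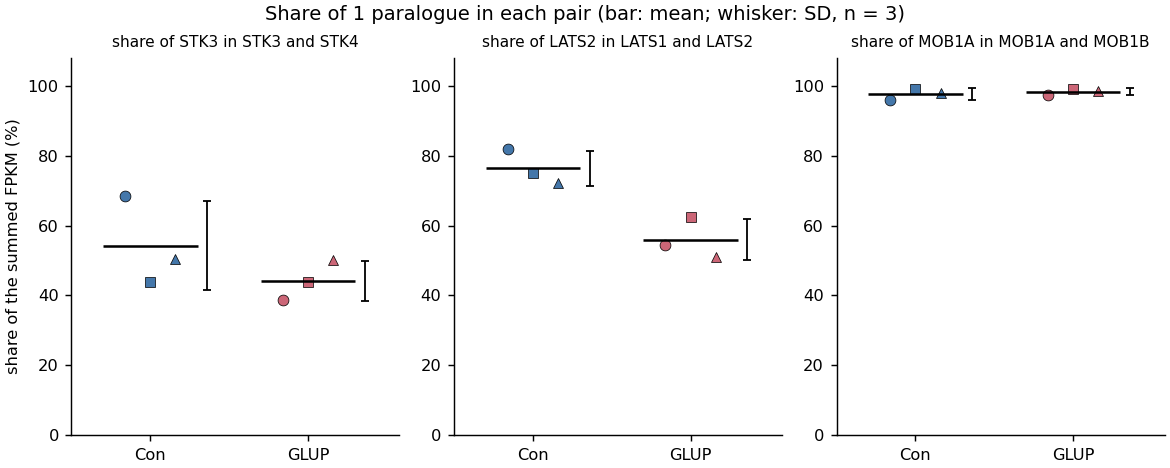
Share (%) of STK3, LATS2 and MOB1A in the summed FPKM of their paralogue pair for each Con (blue) and GLUP (red) library, with circles, squares and triangles for replicates 1 to 3, bars for means and whiskers for SD (n = 3). The LATS2 share is 72.3% to 82.0% in Con and 50.9% to 62.5% in GLUP, while the shares of STK3 and MOB1A overlap between the groups.

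The adaptors were lower on average in GLUP. MOB1A (ENSG00000114978, chromosome 2, 74379655 to 74406025, minus strand), which binds and activates the LATS and NDR kinases, was at 21.2, 24.7 and 13.1 FPKM in Con and 11.9, 11.3 and 9.55 FPKM in GLUP. The groups did not overlap, with Con replicate 3 again nearest to GLUP. MOB1A averaged 19.7 ± 5.94 FPKM in Con against 10.9 ± 1.21 FPKM in GLUP (SD, n = 3 each), a log2 fold change of −0.76 (SE 0.32) with an unadjusted p of 0.0387 and an adjusted p of 0.212 in limma. It was −1.01 without Con replicate 3, where MOB1A passed the adjusted threshold, and −0.58 without Con replicate 2.

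SAV1 (ENSG00000151748, chromosome 14, 51098776 to 51135024, minus strand), the scaffold of STK3 and STK4, was at 1.28, 2.02 and 0.655 FPKM in Con and 0.838, 0.768 and 0.496 FPKM in GLUP. Con replicate 3 lay below 2 of the GLUP libraries, so the groups overlapped. The log2 fold change was −0.41 (SE 0.25, adjusted p 0.329 in limma), or −0.20 without Con replicate 2, and SAV1 is uncertain because ATL1, at a mean of 3.56 FPKM, overlaps it by 1960 bases on the opposite strand and strand-specific counting is not stated. In addition, 8.44% of the 50-base windows of its transcripts also occur in ENSG00000249741. MOB1B (ENSG00000173542, chromosome 4, 71768043 to 71888166, plus strand) was at 0.902, 0.242 and 0.250 FPKM in Con and 0.315, 0.0836 and 0.141 FPKM in GLUP. Its high Con value came from replicate 1, the groups overlapped, and the log2 fold change was −0.29 (SE 0.20, adjusted p 0.622 in limma), or −0.08 without that library. DCK, at a mean of 1.11 FPKM, shares 29912 bases with the MOB1B locus on the same strand, so MOB1B is uncertain too.

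Among the membrane scaffolds, NF2 had the only higher mean of the members at 1 FPKM or more. NF2 (ENSG00000186575, chromosome 22, 29999545 to 30094587, plus strand) encodes merlin, a tumour suppressor that brings LATS kinases to the membrane. It was at 1.06, 1.12 and 1.55 FPKM in Con and 2.99, 2.01 and 1.46 FPKM in GLUP. GLUP replicate 3 fell within the Con range, so the groups overlapped. NF2 averaged 1.24 ± 0.269 FPKM in Con against 2.15 ± 0.776 FPKM in GLUP (SD, n = 3 each), a log2 fold change of 0.47 (SE 0.25, adjusted p 0.280 in limma), which was 0.29 without GLUP replicate 1. With the trimmed mean of log ratios it was 0.64, at an unadjusted p of 0.0324 and an adjusted p of 0.244 in limma.

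WWC1 (ENSG00000113645, chromosome 5, 167718650 to 167899308, plus strand), which encodes KIBRA, was at 0.733, 1.13 and 0.723 FPKM in Con and 0.622, 0.423 and 0.586 FPKM in GLUP. All GLUP values were lower, but the groups overlapped with the trimmed mean of log ratios. The log2 fold change was −0.27 (SE 0.15, adjusted p 0.622 in limma), or −0.17 without Con replicate 2. AMOTL2 (ENSG00000114019, chromosome 3, 134074189 to 134094321, minus strand), an angiomotin that binds YAP, was at 0.383, 0.288 and 0.708 FPKM in Con and 0.501, 0.381 and 0.315 FPKM in GLUP. The groups overlapped widely and the highest value was that of Con replicate 3. Its log2 fold change was −0.05 (SE 0.15, adjusted p 0.869 in limma), and the sign turned to 0.023 with the trimmed mean of log ratios.

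LATS2 and AMOTL2 are also known as genes that YAP and TEAD switch on, a negative feedback on the pathway. The start regions of the members were therefore searched for GGAATG, on either strand (CATTCC on the other), a core sequence that TEAD factors bind. RefSeq windows (GRCh38.p14) of 300 bases, 250 before and 50 after an annotated start, matched 9 members by symbol with 13 windows in all. The letters occurred in 2 of these 13 windows (15.4%), of AMOTL2 and LATS2, about the 14% of the 35116 windows of all genes that held them. In AMOTL2 the first base of the motif lay 69 bases before the start, and in LATS2 the motif began at base 10 of the transcript. The stretches of 30 bases around both, from chr3:134374499-134374528 and chr13:21061560-21061589, are shown only to locate the letters. With a share near that of all genes, the matches do not set these 2 genes apart. They are on the minus strand, 5′ to 3′, with the motif in capitals:
AMOTL2: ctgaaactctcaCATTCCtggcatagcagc
LATS2: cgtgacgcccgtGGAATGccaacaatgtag
These are matches of letters and not measured binding sites. As given above, LATS2 was lower in every GLUP library in FPKM as deposited but not with the trimmed mean of log ratios. AMOTL2 overlapped between the groups. A link between these letters and the levels was not tested.

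Since the libraries differed by base composition, the members were also placed by the GC content of their transcripts. MOB1B (34.1%), MOB1A (37.3%), STK3 (38.4%), LATS1 (39.0%), SAV1 (42.5%) and STK4 (43.1%) lay below the median of all tested genes, 47.2%. LATS2 (51.8%), WWC1 (54.4%), NF2 (55.7%) and AMOTL2 (56.3%) lay above it. Across 7388 genes, which are not independent replicates, the log2 fold change had a Spearman correlation of 0.549 with GC content. Once the dependence on GC content and length had been taken out of every library, the log2 fold changes came to −0.40 for STK3, −0.22 for MOB1A, −0.17 for SAV1 and −0.13 for STK4, and none of the 10 then had an unadjusted p under 0.05 in limma. NF2 stayed at 0.45 and WWC1 at −0.26, and LATS1 moved to 0.16. With the trend removed, the groups did not overlap for 2 higher members, NF2 and LATS1, compared with 9.3% of the genes that averaged 0.1 FPKM or more, and for 4 lower members, STK3, LATS2, MOB1A and WWC1, compared with 11.9%.

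**Figure D3:**
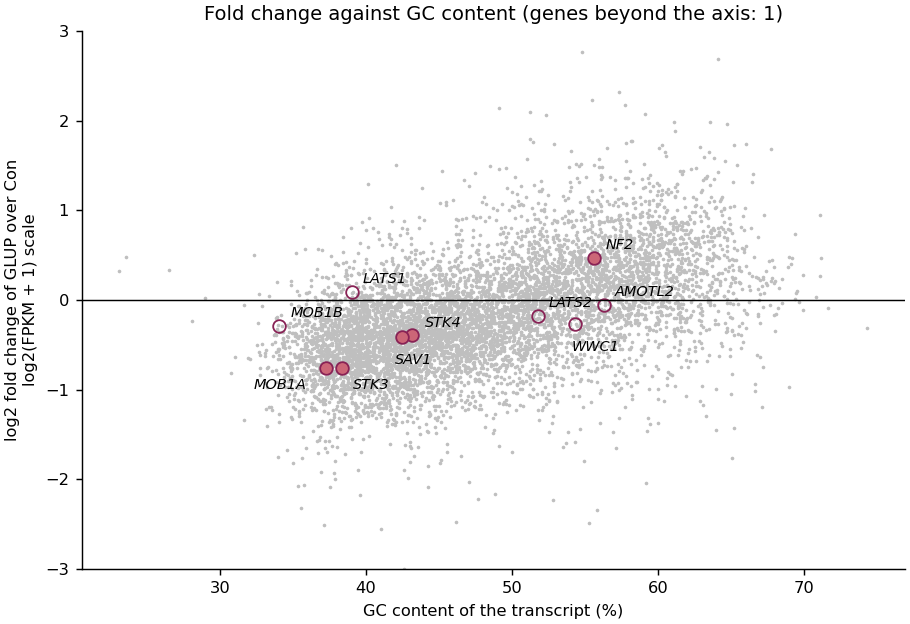
Log2 fold change of GLUP over Con on the log2(FPKM + 1) scale against the GC content (%) of the transcript for all tested genes (grey) and the 10 cascade genes (filled, mean of at least 1 FPKM; open, below it, from the fit without a filter), with 1 gene beyond the axis. MOB1A and STK3 lie at the low-GC end with fold changes of −0.76, NF2 at the high-GC end with 0.47, and the cloud rises with GC content.

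**Figure D4:**
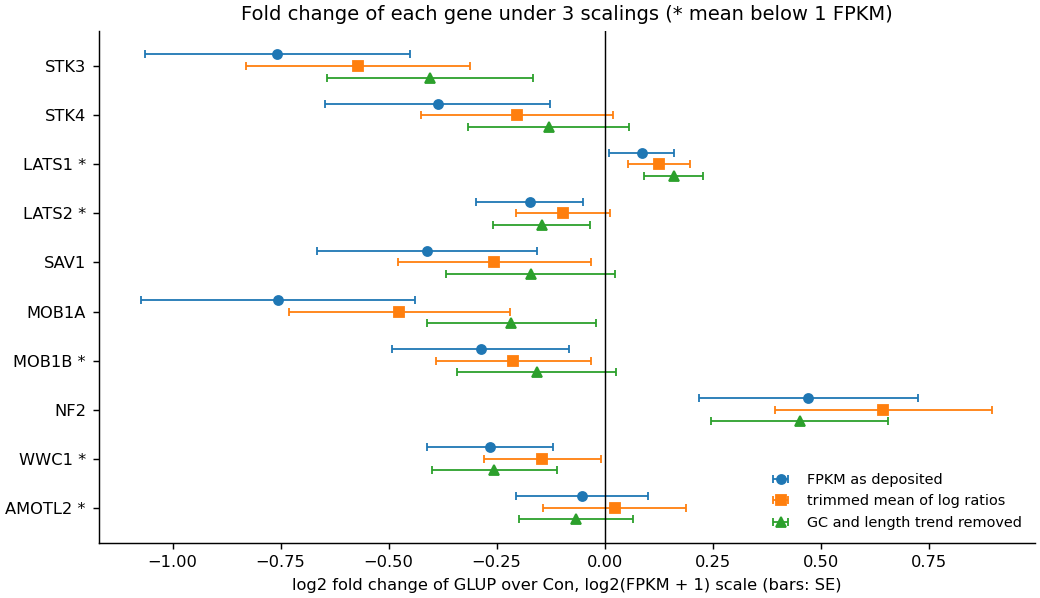
Log2 fold change of GLUP over Con for each cascade gene with FPKM as deposited, after scaling by the trimmed mean of log ratios, and after removal of the GC and length trend, with bars giving the SE of limma (3 libraries per group) and asterisks marking means below 1 FPKM. MOB1A moves from −0.76 to −0.47 and −0.22, whereas NF2 stays between 0.45 and 0.64.

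The members did not move as a unit across libraries. Con replicate 2 had the highest value of 5 members, Con replicate 1 of 2, and Con replicate 3, GLUP replicate 1 and GLUP replicate 3 of 1 each. The lowest values were in GLUP replicate 2 for 4 members and in GLUP replicate 3 for 3, and Con replicates 1 and 2 held those of the other 3 (LATS1, NF2 and AMOTL2). Within Con the highest library exceeded the lowest by 1.47 times for NF2 to 3.72 times for MOB1B. Within GLUP these ratios ran from 1.18 for LATS2 to 3.77 for MOB1B.

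Other regulators of the cascade were counted over 80 further genes in 9 roles, all of which were in the table. The genes listed for the phosphatase complex STRIPAK, which dephosphorylates STK3 and STK4, made up most of those at an unadjusted p under 0.05. They include the PP2A subunits PPP2CA, PPP2CB and PPP2R1A. Of the 80, 33 had a mean of at least 1 FPKM, 24 of these had a lower mean in GLUP, and their median log2 fold change was −0.41, beside −0.41 for the 5 tested cascade members and −0.23 for all tested genes. At an unadjusted p under 0.05, 7 were lower and 1 was higher (backgrounds of 17.2% and 4.46% of all tested genes), and 0 passed the adjusted threshold in limma. With the GC and length trend removed these counts were 5 and 1, beside 10.8% and 7.59% of all tested genes, and the median was −0.12, beside −0.05.

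STRIPAK had 7 of its 13 listed genes tested, with a median log2 fold change of −1.01, or −0.64 with the trend removed. At an unadjusted p under 0.05, 5 were lower and 1 was higher, where 17.2% and 4.46% of all tested genes were. With the trend removed, 4 were lower, SIKE1 no longer among them, and 1 was higher, where 10.8% and 7.59% of all tested genes were. STRN3, a striatin that scaffolds the complex, was at 15.3, 62.3 and 6.57 FPKM in Con and 3.31, 3.04 and 1.21 FPKM in GLUP. All GLUP values were lower, though the Con libraries themselves differed widely, with replicate 2 far above. Its log2 fold change was −2.55 (SE 0.65, adjusted p 0.194 in limma), and it was −2.15 with the trend removed. PPP2CA, a catalytic subunit of phosphatase PP2A, was at 4.65, 5.42 and 2.34 FPKM in Con and 1.56, 1.71 and 0.794 FPKM in GLUP (log2 fold change −1.10), and its paralogue PPP2CB had −0.81. PDCD10, a small adaptor of the complex, was at 38.7, 52.3 and 15.6 FPKM and 11.0, 12.2 and 12.4 FPKM (−1.35, and −0.74 with the trend removed). SIKE1, a partner of SLMAP in the module that docks STRIPAK on STK3 and STK4, was at 53.2, 73.7 and 40.4 FPKM and 23.2, 25.0 and 31.4 FPKM (−1.01, and −0.43 with the trend removed). The scaffold subunit PPP2R1A went the other way, at 4.36, 3.68 and 4.32 FPKM in Con and 6.80, 5.89 and 8.12 FPKM in GLUP, a log2 fold change of 0.63. In all 6 of these genes the groups did not overlap, which their choice by an unadjusted p in the same libraries makes likely. Of the 7406 tested genes, the groups of 1682 did not overlap as lower and those of 559 as higher. FGFR1OP2, the other tested gene of the complex, overlapped between the groups. None of the 6 passed the adjusted threshold in limma (0.194 to 0.212).

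**Figure D5:**
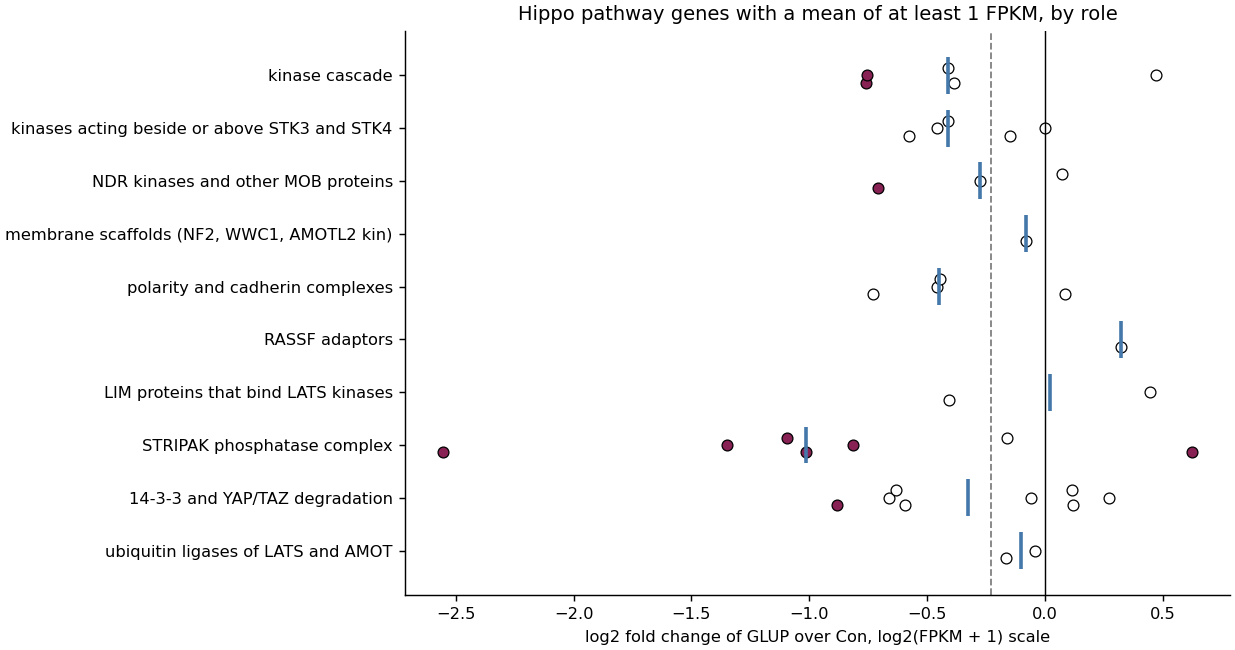
Log2 fold change of GLUP over Con on the log2(FPKM + 1) scale for the 5 tested cascade genes and the 33 tested genes of the other roles, with a point per gene (filled, unadjusted p under 0.05 in limma), a blue bar at the median of each role and a dashed line at the median of all tested genes, −0.23. The STRIPAK row lies furthest left, with STRN3 at −2.55 and PPP2R1A alone on the right at 0.63.

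In the remaining roles, 2 of the 26 tested genes were lower at an unadjusted p under 0.05, where 17.2% of all tested genes were. With the GC and length trend removed, only YWHAH stayed so, beside 10.8% of all tested genes. YWHAH, a 14-3-3 protein of the family that holds phosphorylated YAP in the cytoplasm, had a log2 fold change of −0.88, and MOB4 had −0.71, or −0.12 with the GC and length trend removed. MOB4 is uncertain, since HSPD1 (162 FPKM) and the read-through gene HSPE1-MOB4 overlap it. The largest changes of the other roles were those of PATJ (−0.73), a polarity protein, MAP4K5 (−0.57, overlapped by ATL1), a kinase that can act on LATS beside STK3 and STK4, ZYX (0.45), RASSF1 (0.32), RNF146 (−0.16) and TJP1 (−0.08), none of which had an unadjusted p under 0.05 in limma. Among the 47 listed genes below 1 FPKM, MAP4K3, WWC2 and WWP1 were lower at an unadjusted p under 0.05 (−0.68, −0.67 and −0.70), where 5.9% of all genes in the unfiltered fit were, with an adjusted p of 0.589 for each in limma. WWP1 is uncertain, since RMDN1 (27.1 FPKM) overlaps it by 10164 bases on the opposite strand, and so is MAP4K3, which MAP4K3-DT (6.67 FPKM) overlaps.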

How the data were processed

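RNA-sequencing libraries were made from total RNA of HGC-27 cells, and 6 of them were grouped by their titles as 3 Con and 3 GLUP. The authors deposited 1 table of FPKM values per gene. The submitters' processing notes name HISAT2, Cufflinks and RSEM without versions or roles, and genome build GRCh38.p10, whereas the gene identifiers carry suffixes of a GENCODE annotation lifted to GRCh37. Gene coordinates, length and GC content were therefore taken from GENCODE release 44 lifted to GRCh37, and promoter windows from RefSeq (GRCh38.p14). Of 62492 rows, 49 pseudoautosomal copies were summed with their counterparts. FPKM is relative to the library total and carries no counts, so count tests were not used. A common step among low values was sought as the best of many candidates and took in only 2.41% to 3.58% of single-transcript genes above 0. It would place relative depth between 0.835 and 1, but without a background for such a best step this is not established. Read counts were not recovered, and no counting intervals are given.

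Values were tested as log2(FPKM + 1) with limma 3.58.1 (lmFit, then eBayes with trend, under R 4.3.3) in a two-sided comparison without covariates, over the 7406 genes that averaged 1 FPKM or more, with Benjamini-Hochberg adjustment over all of them. For members below this minimum, values came from an unfiltered fit of the same kind (31444 genes above 0 in at least 1 library). Paralogue shares were tested by exact permutation with scipy 1.17.1. The trend in GC content and length was estimated by loess (span 0.5) on the tested genes of each library and removed as a factor. The trimmed mean of log ratios trimmed 30% of genes by ratio and 5% by level from either side. In all, 21 alternatives were tried.

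The members and lists were chosen with earlier results of these data known. All 10 members are named, and of the wider list each gene with an unadjusted p under 0.05 and, in each role, the tested gene with the largest absolute log2 fold change. A result of the wider list below 1 FPKM is not reported here. Of 25 marker genes, 24 were found, and PECAM1 was not analysed here. On data simulated for GLUP against Con (7406 genes, 200 changed), the fit called 84 genes, 2 of them false, and recovered 68% of changes of 2 and 14% of changes of 1 on the log2 scale. No libraries held identical values. Libraries with the same replicate number had correlations of deviations of 0.132, −0.0102 and −0.173, and the labels give no shared origin, so the numbers were not taken as pairs. Other software was Python 3.11.15 with numpy 2.4.6, pandas 2.3.3 and matplotlib 3.10.9.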

Additional observations from a re-analysis of the deposited data

How the results depend on the processing

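Of 210 member values under the alternatives, 199 kept their direction and side of the threshold, 7 newly passed an adjusted p of 0.05 in limma, 0 lost it and 4 changed sign. Part of this was fixed in advance. No member passed the threshold in the main fit, so none could lose it. Alternatives that alter only the filter, the eBayes step or the block leave the fold change as it was. Apart from weights and the fit without Con replicate 3, at most 3 genes of the whole table passed the threshold. The sign changes were all of AMOTL2, at 0.022 with the upper quartile, at 0.023 with the trimmed mean of log ratios, at 0.014 with centring on the median, and from −0.14 to 0.067 with single libraries left out, the highest without Con replicate 3. The newly passing values were those of STK3, STK4, SAV1, MOB1A and NF2 under weights per library, which passed 4142 of 7406 genes, and of STK3 and MOB1A without Con replicate 3. Against 0 members at an adjusted p under 0.05 in limma, weights gave 5. Against 2 members at an unadjusted p under 0.05, the upper quartile, the trimmed mean, quantile normalization and median centring gave 1 each, which was NF2, higher, in place of STK3 and MOB1A, the replicate block gave 1, STK3, weights gave 5, and removal of the GC and length trend gave 0, with the replicate block as well as without it. The block moved no member across the adjusted threshold. The 8 genes of the wider list became 23 with weights, where 4513 of the 7406 tested genes had an unadjusted p under 0.05 in limma. With single libraries left out, adjusted calls ran from 0 to 2 and unadjusted ones from 0 to 4. Members without overlap ran from 4 to 7 and genes of the wider list from 4 to 17. The highest of each came without Con replicate 3. There 2986 of the 7406 tested genes had an unadjusted p under 0.05 in limma, and the groups of 4207 did not overlap. The median of the members went from −0.28 to −0.58 and −0.65 with pseudocounts of 0.1 and 0.01. The cause of these shifts was not tested. The LATS2 share difference was −26.1 points with the trend removed, that of MOB1A ran from −0.168 to 1.39 points with single libraries left out, and that of STK3 from −15.3 to −3.05 points. With 3 libraries per group and unknown read depth, changes of 1 on the log2 scale were mostly below what the fit could call in the simulated data. Those data held independent noise, no shared trend in GC content and no genes under 1 FPKM, where recovery was therefore not measured. None of the members under 1 FPKM had an unadjusted p under 0.05 in limma with FPKM as deposited.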
